A study of Rattus norvegicus with 6 samples.

Results

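Smooth muscle contractile genes were examined in livers of rats given faecal microbiota by daily gavage. The set held the 9 genes Acta2, Actg2, Myh11, Cnn1, Lmod1, Tpm1, Tpm2, Myl9 and Des, chosen by name, and not by a threshold on their values, from the 30957 genes of the expression table. Livers came from 3 t-PBS rats, whose donors had been injected with PBS, and from 3 t-DHEA rats, whose donors had been injected with dehydroepiandrosterone (DHEA), an androgen precursor used to produce a model of polycystic ovary syndrome. All recipients were female Sprague Dawley rats, purchased at weaning age and kept specific pathogen-free, and those of both groups had their own gut microbiota reduced by a 3-course antibiotic cocktail in the drinking water before transplantation. The recipients themselves were given no DHEA, and faecal pellets of the donors were pooled before gavage, so that the rats of a group did not each have a donor of their own. Total RNA was taken from a piece of snap-frozen whole liver, without sorting of cells, and each library stands for 1 liver.

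Smooth muscle contracts when myosin, activated by phosphorylation of its regulatory light chain, pulls on actin filaments. Tropomyosin, calponin and leiomodin bind these filaments, and desmin joins the contractile apparatus to the cell's cytoskeleton. In the liver such cells form the walls of portal veins, hepatic arteries and central veins, and hepatic stellate cells, which store vitamin A, also express desmin and take on smooth muscle actin when activated. Serum response factor (SRF), with its partners of the myocardin family, drives many of these genes through the CArG box, a stretch of 2 C, 6 A or T, and 2 G.

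RefSeq windows from 250 bases before to 50 bases after the gene start (build GRCr8) were found for 6 of the 9 genes: Acta2, Actg2, Cnn1, Tpm1, Tpm2 and Des. No consensus CArG box lay in these 6 windows, against 1.64% of all 33469 windows of the same length that held at least 1. The box reads the same on both strands, so that 1 search covers both. Acta2 was the only gene of the 6 with boxes that depart from the consensus by 1 G or C among the inner 6 bases. Its window held 2 of them, starting 134 and 84 bases before the gene start, and 9.42% of all windows held at least 1 such box. The 250 bases before the start of Acta2 and of Cnn1 are shown because Acta2 is the actin that defines the set and Cnn1 is the gene whose groups lay farthest apart. Capitals mark the CArG-like boxes. Acta2 is at chr1:241172504-241172753 on the minus strand of GRCr8, and Cnn1 is at chr8:28908187-28908436 on the plus strand, both printed 5′ to 3′ on the strand of the gene.
Acta2: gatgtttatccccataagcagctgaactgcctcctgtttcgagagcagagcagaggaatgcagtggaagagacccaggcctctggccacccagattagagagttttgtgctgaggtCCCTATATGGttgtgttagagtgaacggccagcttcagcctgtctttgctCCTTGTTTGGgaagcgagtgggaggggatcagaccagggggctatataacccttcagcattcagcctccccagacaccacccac
Cnn1: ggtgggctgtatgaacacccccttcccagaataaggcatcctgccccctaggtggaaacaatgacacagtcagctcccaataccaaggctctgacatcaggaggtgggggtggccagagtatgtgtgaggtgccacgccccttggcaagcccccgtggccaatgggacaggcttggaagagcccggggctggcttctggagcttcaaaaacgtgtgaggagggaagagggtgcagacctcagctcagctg
These matches describe letters in a window and do not show binding.

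The libraries held between 12348511 and 14316886 counts on genes, and the depths of the groups overlapped. The 9 genes together took between 0.00794% and 0.00981% of the counts of a liver. Counts are also given as CPM, scaled to library size. A count of 0 allows up to 3 counts in a library, which is 0.21 to 0.243 CPM and takes in counting error only. Hepatocyte markers such as Alb and Apoa1 were abundant in all 6 livers, with a sum of 10 markers between 176100 and 205100 CPM. Myh9, the main non-muscle myosin heavy chain, is listed at 0 in every liver although most cells express it, so that a 0 in all livers can come from the counting.

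Per gene length, Tpm1 and Myl9 were the most abundant of the set. Tpm1, a tropomyosin also made in many non-muscle cells, was at 14.3 ± 1.51 FPKM (fragments scaled to gene length and library size; SD, n = 6 livers). Myl9, a regulatory light chain of myosin, was at 12.9 ± 1.504 FPKM (SD, n = 6). Below them came Acta2 at 3.44 ± 0.949 FPKM, Tpm2 at 2.22 ± 0.664 FPKM and Des at 1.11 ± 0.256 FPKM (SD, n = 6). Myh11, the smooth muscle myosin heavy chain, was at 0.904 ± 0.439 FPKM and Actg2, the enteric smooth muscle actin, at 0.533 ± 0.303 FPKM (SD, n = 6). The lowest were Cnn1, which encodes calponin, at 0.363 ± 0.386 FPKM and Lmod1, which encodes leiomodin, at 0.184 ± 0.0932 FPKM (SD, n = 6).

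Neighbours in this order were compared within livers by an exact sign-flip permutation test, two-sided, whose smallest p is 0.0312. The order came from the same 6 livers, so that the p-values do not test an order chosen beforehand. Tpm1 exceeded Myl9, Myl9 exceeded Acta2, Tpm2 exceeded Des and Myh11 exceeded Actg2 in 6 of 6 livers, each with p = 0.0312 and an adjusted p of 0.0625 over 8 pairs in the exact test. The step from Myl9 to Acta2 was the widest, 1.95 ± 0.371 on the log2 scale of FPKM (SD, n = 6). Acta2 was above Tpm2 in 5 of 6 livers (exact permutation test, adjusted p = 0.1). Des and Myh11, Actg2 and Cnn1, and Cnn1 and Lmod1 each kept their order in 4 of 6 livers, with adjusted p-values from 0.208 to 0.5 in the exact test, and did not differ beyond their spread. None of the 8 steps had an adjusted p below 0.05, which would have needed most of them to be at the smallest p.

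**Figure D1:**
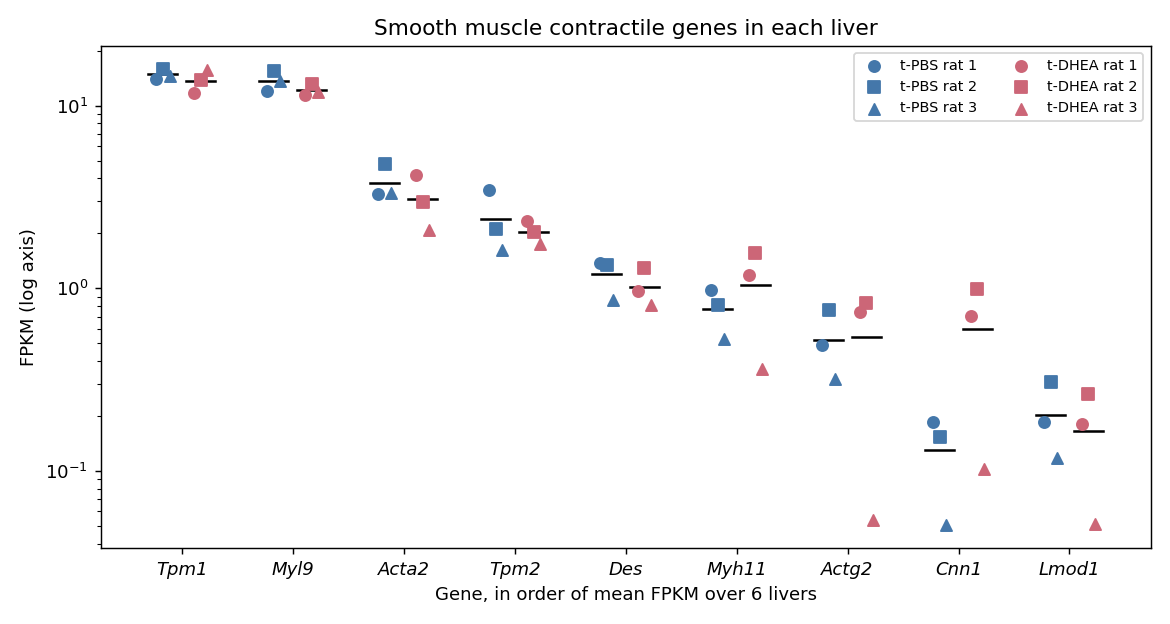
Level of each of the 9 genes in each liver, in FPKM on a log axis, with the genes in order of their mean over 6 livers. Circles, squares and triangles are rats 1, 2 and 3 of each group, and black bars are group means. For all 9 genes the t-PBS and t-DHEA livers overlap, and t-DHEA rat 3 is lowest for Acta2, Des, Myh11, Actg2 and Lmod1.

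None of the 8 genes kept by the low-count filter of edgeR met the study's criteria between t-DHEA and t-PBS livers, which were a fold-change over 1.2 together with a p, not adjusted, under 0.05. Of all 12210 genes tested, 4.95% met them, 1.97% as higher and 2.98% as lower in t-DHEA livers. A p under 0.05 was obtained for 0 of these 8 genes by quasi-likelihood in edgeR, and for 0 by its likelihood-ratio test, by DESeq2 and by limma. Adjusted p-values (edgeR, Benjamini-Hochberg) were 0.986 or more for them, and 0.242 or more for all genes. Of the 8, 6 had a log2 fold change below 0, as had 49.6% of all genes tested. The median was -0.16, beside 0.0013 over all genes tested. Leaving out t-PBS rat 1 or 2 brought it to -0.054 or -0.041, and leaving out t-DHEA rat 2 or 3 to -0.21 or -0.032. The groups overlapped for all 9 genes, whereas they did not overlap for 10.1% of all genes tested. In bulk liver, fewer smooth muscle cells and less RNA per cell cannot be told apart. The p-values measure the spread between 3 livers per group.

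Acta2, the vascular smooth muscle actin, is on chromosome 1 from 252537615 to 252550394 (Rnor_6.0, as for all positions that follow). Its counts were 65, 87 and 61 in the t-PBS livers of rats 1, 2 and 3, in this order here and in what follows, and 72, 56 and 38 in the t-DHEA livers. Of the 6 livers t-PBS rat 2 was highest and t-DHEA rat 3 lowest, and the groups overlapped. Its expression was 5.19 ± 1.06 CPM in t-PBS and 4.35 ± 1.51 CPM in t-DHEA livers (SD, n = 3 each). Acta2 had a log2 fold change of -0.26, a standard error of 0.27 and a 95% interval from -0.87 to 0.36. Without t-DHEA rat 3 it was -0.032. Actg2 (chromosome 4, 115215060 to 115239723) had 10, 14 and 6 counts in t-PBS and 13, 16 and 1 counts in t-DHEA livers. The single count in t-DHEA rat 3 lay under the limit of 3 counts, and the other t-DHEA livers were slightly above every t-PBS liver in CPM. Its log2 fold change of 0.097 had an interval from -1.45 to 1.64, so that neither a 2-fold rise nor a 2-fold fall lay outside it. The sign of Actg2 turned under several alternatives and is not interpreted. Actins are near-identical in coding sequence, so that the counting could have split reads among Acta2, Actg2 and other actin genes.

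Myosin genes were Myh11 and Myl9. Myh11 (chromosome 10, 764421 to 859184) had 100, 75 and 50 counts in t-PBS and 105, 151 and 34 counts in t-DHEA livers. Both the highest and the lowest of the 6 livers were thus t-DHEA livers, and they differed 4.30-fold in CPM. Expression was 5.43 ± 1.62 CPM in t-PBS and 7.53 ± 4.44 CPM in t-DHEA livers (SD, n = 3 each), and the log2 fold change 0.47, its standard error being 0.45 (unadjusted p = 0.323, quasi-likelihood test of edgeR). Without t-DHEA rat 3 the log2 fold change was 0.88 (unadjusted p = 0.0105, same edgeR test), and without t-DHEA rat 2 it was 0.046. A single liver therefore decided whether Myh11 met the criteria. Myl9 (chromosome 3, 152857592 to 152863960) had 189, 222 and 199 counts in t-PBS and 155, 196 and 171 counts in t-DHEA livers. The 6 livers lay within 1.28-fold of each other in CPM, at 14.9 ± 1.56 CPM in t-PBS and 13.6 ± 0.979 CPM in t-DHEA livers (SD, n = 3 each). Myl9 had a log2 fold change of -0.13 with a standard error of 0.12, and the interval from -0.41 to 0.15 left out a change of 1.5-fold in either direction.

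The tropomyosins, which lie along the actin filament, showed no difference beyond the spread. Tpm1 (chromosome 8, 72814740 to 72842228) had 758, 780 and 726 counts in t-PBS and 544, 705 and 768 counts in t-DHEA livers, with t-DHEA rat 1 lowest and t-DHEA rat 3 highest in CPM. Expression was 55.1 ± 2.21 CPM in t-PBS and 52.3 ± 7.21 CPM in t-DHEA livers (SD, n = 3 each). Its log2 fold change of -0.075 had an interval from -0.34 to 0.19. Tpm2 (chromosome 5, 59016622 to 59025631) had 74, 41 and 32 counts in t-PBS and 43, 41 and 34 counts in t-DHEA livers. In CPM the t-PBS livers enclosed all 3 t-DHEA livers. The log2 fold change of Tpm2 was -0.21 with an interval from -0.90 to 0.48, and it was 0.18 without t-PBS rat 1, the highest liver. Both genes make several splice forms, of which some are non-muscle, and a count per gene does not separate them.

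Cnn1, on chromosome 8 from 23113048 to 23121761, was the only gene of the set below the filter. Its counts were 4, 3 and 1 in t-PBS and 13, 20 and 2 in t-DHEA livers. Rats 1 and 2 of the t-DHEA group were above every t-PBS liver, while t-DHEA rat 3 lay within the t-PBS range, so that the groups overlapped. Without the filter, groups did not overlap for 9.16% of genes. Expression was 0.192 ± 0.105 CPM in t-PBS livers, close to the limit of a count of 0, and 0.907 ± 0.685 CPM in t-DHEA livers (SD, n = 3 each). Tested without the filter, the log2 fold change was 2.18, its standard error 0.80 and its 95% interval 0.41 to 3.95 (unadjusted p = 0.0205, adjusted p = 0.895, quasi-likelihood test of edgeR). Without the filter 4.52% of 17187 genes met the criteria. DESeq2 gave an unadjusted p = 0.0233 and the likelihood-ratio test of edgeR an unadjusted p = 0.0102, also without the filter. Cnn1 met the criteria in 3 of 6 leave-one-out fits without the filter, and its log2 fold change was lowest, 1.61, without t-DHEA rat 2 and highest, 2.68, without t-DHEA rat 3. Calls were lost without t-PBS rat 3 (unadjusted p = 0.0663, edgeR), t-DHEA rat 1 (unadjusted p = 0.0615) or t-DHEA rat 2 (unadjusted p = 0.113).

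Lmod1, an actin nucleator of smooth muscle (chromosome 13, 52147555 to 52190228), had 12, 18 and 7 counts in t-PBS and 10, 16 and 3 counts in t-DHEA livers. Here too rat 3 was lowest within its group. The log2 fold change was -0.25 with an interval from -1.53 to 1.03, and it was 0.18 without t-DHEA rat 3. Des, which encodes the intermediate filament protein desmin (chromosome 9, 82556573 to 82564294), had 43, 38 and 25 counts in t-PBS and 26, 38 and 23 counts in t-DHEA livers. The groups overlapped, and t-DHEA rat 3 was lowest. Expression of Des was 2.57 ± 0.598 CPM in t-PBS and 2.25 ± 0.541 CPM in t-DHEA livers (SD, n = 3 each), and its log2 fold change was -0.19 with an interval from -0.84 to 0.46. Leaving out t-DHEA rat 2 or 3 brought it to -0.39 or -0.035. A 2-fold change of Actg2 in either direction, or a 2-fold change of Lmod1 in either direction, lay within its interval.

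**Figure D2:**
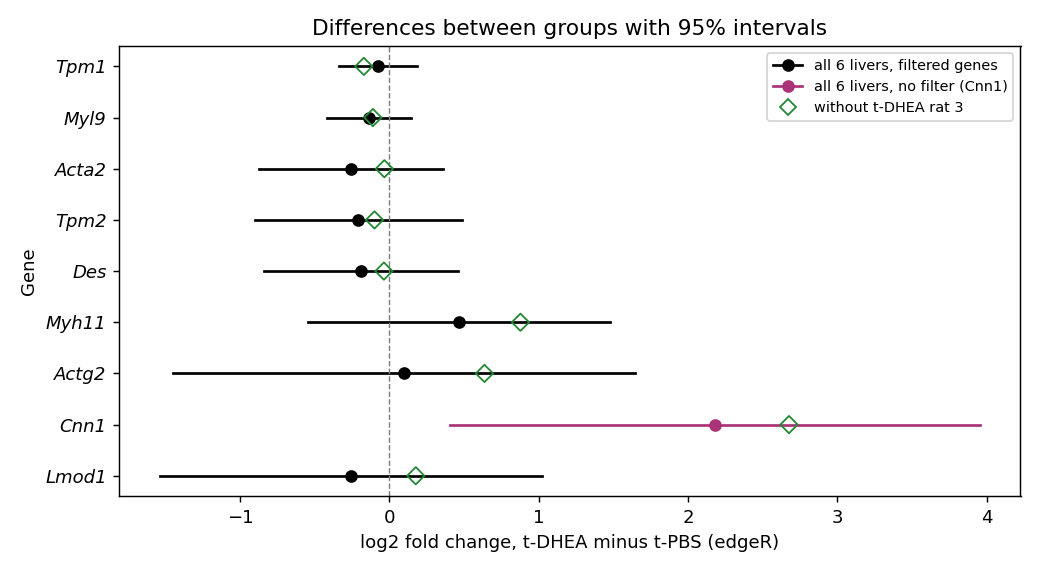
Log2 fold change of t-DHEA against t-PBS livers for each gene in edgeR, with 95% intervals as lines (black, genes passing the filter; purple, Cnn1 without the filter), and green diamonds for the fit without t-DHEA rat 3. The interval of Cnn1, from 0.41 to 3.95, is the only one that does not cross 0, and leaving out t-DHEA rat 3 moved Myh11 from 0.47 to 0.88.

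Livers varied more in some of these genes than in others. Myh11 had the widest spread for its level: its biological coefficient of variation in edgeR was 37.3%, above that of 99.2% of the 1804 genes of like level (within 0.5 log2 CPM). Actg2 and Lmod1 had coefficients of 46.6% and 36.5%, above those of 94.6% and 86.4% of genes of like level. Acta2 and Tpm2 followed with 21.5% and 23.8%, above those of 85.1% and 82.8% of genes of like level. For Des, Tpm1 and Myl9 the coefficients were 20.04%, 11.8% and 10.98%, above those of 52.8%, 58.6% and 29.2% of genes of like level. Within groups, the counts of Myh11 varied 20.4 times as much as counting noise alone gives, those of Des 1.79 times and those of Myl9 1.61 times. Tpm1 varied 6.81 times as much, Tpm2 4.56 times and Acta2 4.78 times.

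Low values gathered in a few livers. Of the 9 genes, 5 were lowest in t-DHEA rat 3, namely Acta2, Actg2, Myh11, Lmod1 and Des. Averaged over the 8 genes tested, log2 CPM relative to the gene means was -0.72 in t-DHEA rat 3 and -0.25 in t-PBS rat 3, and between 0.17 and 0.32 in the other 4 livers. Without Actg2 and Lmod1, which had 3 or fewer counts in t-DHEA rat 3, the mean of the other 6 genes was -0.40 there and -0.20 in t-PBS rat 3, and between 0.090 and 0.19 in the other livers. Without the abundant Tpm1 and Myl9, the summed level of the other 7 genes was 21.6, 20.3 and 13.7 CPM in t-PBS and 23.3, 25.3 and 10.4 CPM in t-DHEA livers. Rat 3 thus had the lowest sum in each group. That t-DHEA rats 1 and 2 had the highest sums rested on Myh11, which was also highest in these livers. Myh11 alone made 7.00, 5.53 and 3.77 CPM of the sums in t-PBS and 8.66, 11.3 and 2.62 CPM in t-DHEA livers. Tpm1 ran the other way and was highest in t-DHEA rat 3. The depth of that library, 13081514 counts, lay within the range of the others.

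**Figure D3:**
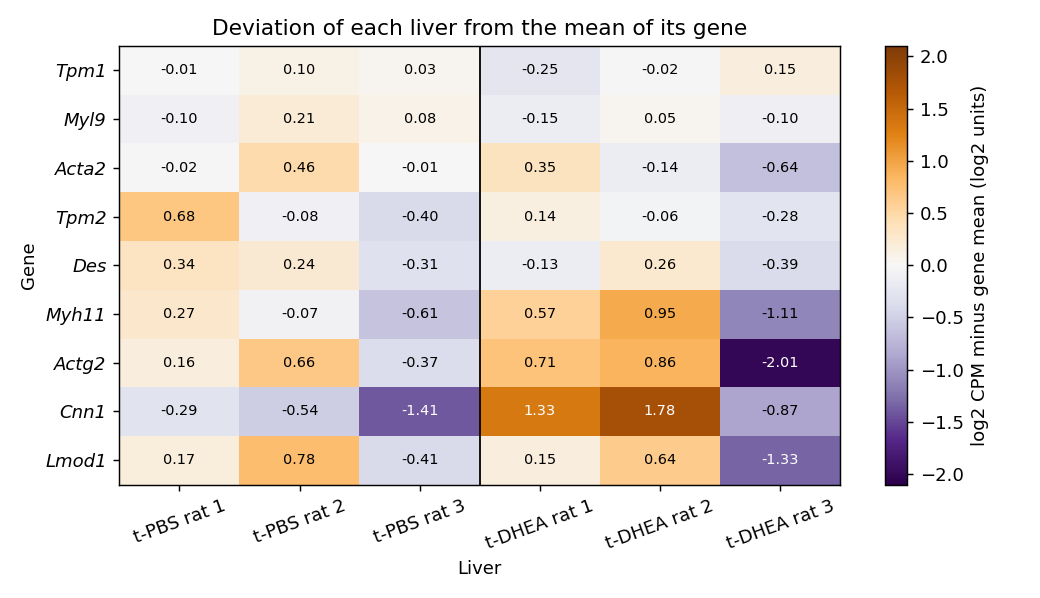
Log2 CPM of each gene in each liver minus the mean of that gene over 6 livers (numbers in the cells, log2 units; orange above, purple below the mean). The column of t-DHEA rat 3 holds the lowest value of 5 genes, down to -2.01 for Actg2, and the rows of Tpm1 and Myl9 stay between -0.25 and 0.21.

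Among 11790 other genes with a mean of at least 1 CPM, those nearest to the mean profile of the 8 genes over the 6 livers were Tmem201, Pik3r3, Pde7a, Pclo and Tspan14. Their root mean square differences from it were 0.0851, 0.105, 0.110, 0.132 and 0.144 log2 units. A gene with the same level in all livers would be at 0.370, and 3497 genes were nearer than that. Tmem201 had 8.75, 9.95 and 7.62 CPM in t-PBS and 8.83, 9.57 and 5.09 CPM in t-DHEA livers, with the minimum in t-DHEA rat 3 as for Myh11. The minimum of the mean profile in t-DHEA rat 3, -0.72, rested in part on Actg2 and Lmod1, which had 1 and 3 counts there. Without them it was -0.40. The comparison of profiles describes 6 livers and is not a test.

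Markers of cells that could carry these genes were set beside them. Of 12 genes of vascular mural cells and pericytes, none was at 0 in all livers and 7 were tested. Of the 7, 1 met the criteria, or 14.3%, beside 4.95% of all genes tested. The sum of the 12 genes was 73.1, 75.2 and 63.7 CPM in t-PBS and 61.8, 67.1 and 53.5 CPM in t-DHEA livers. Here as well t-DHEA rat 3 was the lowest liver. Notch3, a receptor of mural cells, fell from 3.57 ± 0.357 to 2.33 ± 0.406 CPM (SD, n = 3 each), a log2 fold change of -0.61 (unadjusted p = 0.0246, quasi-likelihood test of edgeR). It met the criteria in 2 of 6 leave-one-out fits, and not in DESeq2 or limma. Rgs5, a pericyte gene, had 45, 39 and 37 counts in t-PBS and 34, 51 and 31 counts in t-DHEA livers, with overlapping groups. The part of mural cells in the spread of the contractile genes was not tested.

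Of 14 stellate cell genes, all were tested and 1 met the criteria, or 7.14%, which is near the 4.95% of all genes tested. The sum ran from 634.6 to 680.7 CPM in t-PBS and from 578.4 to 694.1 CPM in t-DHEA livers, and it was highest in t-DHEA rat 3, the liver in which 5 of the 9 contractile genes were lowest. Pdgfra, a receptor of mesenchymal cells, fell by 0.37 on the log2 scale (unadjusted p = 0.0335, quasi-likelihood test of edgeR) and met the criteria in 3 of 6 leave-one-out fits. Of 9 portal fibroblast genes, 6 were tested and 1, Mgp, a matrix protein, met the criteria, or 16.7%, beside the same 4.95%. Mgp fell by 0.55 on the log2 scale, but no longer met the criteria when t-PBS rat 2 or t-DHEA rat 3 was left out. The portal fibroblast list summed to between 139.8 and 207.4 CPM in t-PBS and between 173.0 and 262.3 CPM in t-DHEA livers, and Col15a1 and Mfap4 were at 0 in all livers. Gas6 alone made 70.2% to 89.1% of this sum. The other 8 genes summed to between 30.2 and 41.6 CPM in t-PBS and between 22.5 and 28.7 CPM in t-DHEA livers, without overlap, and all 5 of them that were tested had a log2 fold change below 0.

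Markers of skeletal and cardiac muscle were at or near 0. Of 15 matched striated muscle genes, none passed the filter, and Actc1, Mb, Myh6 and Myh7 were at 0 in all livers. The list summed to between 1.11 and 2.41 CPM in t-PBS and between 0.495 and 1.54 CPM in t-DHEA livers. Acta1, the skeletal muscle actin, had at most 5 counts in any liver. Of the 7 adipocyte genes, 4 were at 0, namely Adipoq, Plin1, Lep and Retn, and none of the 3 tested met the criteria. The adipocyte sum ran from 141.6 to 218.9 CPM in t-PBS and from 147.3 to 176.4 CPM in t-DHEA livers. Car3 and Cidec made 97.6% to 99.6% of it, and the rest of the list summed to between 1.33 and 3.39 CPM in t-PBS and between 0.673 and 2.48 CPM in t-DHEA livers. The genes set aside from these sums were chosen after their values were seen.

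Marker counts of other cell types stand beside the 4.95% of all genes that met the criteria. Of 10 mesothelial genes tested, which mark the cells of the liver capsule, 5 met the criteria and all 5 were lower in t-DHEA livers, among them Upk3b, Muc16 and Msln with log2 fold changes of -2.56, -2.59 and -1.87. The mesothelial sum ran from 369.6 to 500.1 CPM in t-PBS and from 389.1 to 438.4 CPM in t-DHEA livers, and none of the 11 genes was at 0 in all livers. Krt8 and Krt18, keratins that hepatocytes also make, were 87.6% to 97.1% of this sum. The other 9 genes summed to between 45.9 and 52.7 CPM in t-PBS and between 11.4 and 37.7 CPM in t-DHEA livers, without overlap. Of 7 bile duct genes tested, 2 were lower, Krt7 and Krt19, the latter also being on the mesothelial list, and Krt7 met the criteria in 4 of 6 leave-one-out fits and not in DESeq2. That list summed to between 92.2 and 99.1 CPM in t-PBS and between 81.1 and 87.2 CPM in t-DHEA livers, with none of 10 genes at 0. Endothelial and hepatocyte sums overlapped between groups. Of 9 endothelial genes tested, 1 met the criteria, Kdr, a growth factor receptor, with a log2 fold change of 0.36, and the sum ran from 250.9 to 369.8 CPM in t-PBS and from 344.8 to 354.2 CPM in t-DHEA livers. Kdr met the criteria in 3 of 6 leave-one-out fits and not in limma. Of 6 red blood cell genes tested, 4 rose in t-DHEA livers, the sum being between 249.3 and 390.4 CPM in t-PBS and between 416.7 and 826.4 CPM in t-DHEA livers. Of 10 hepatocyte genes 1, Tat, an amino acid enzyme, met the criteria, with a log2 fold change of 0.68. The part of these cells in the values of the contractile genes was not tested.

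Each smooth muscle protein was next set beside a non-muscle form of its family. Vim, set beside Des, is itself a gene of mesenchymal cells. The non-muscle form was the more abundant per length in every liver for all 8 pairs with a ratio. Actb exceeded Acta2 by between 56.5 and 111.9 times, Cnn3 exceeded Cnn1 by between 32.6 and 129.3 times in the 3 livers with over 3 counts of Cnn1, and Tmod3 exceeded Lmod1 by between 40.5 and 105.9 times in the 5 livers with over 3 counts of Lmod1. The excess was smaller for Tpm4 over Tpm2, between 6.96 and 13.4 times, and for Vim over Des, between 8.79 and 24.6 times. Myl12b exceeded Myl9 by between 3.80 and 4.61 times and Tpm3 exceeded Tpm1 by between 1.68 and 2.07 times. For Actg2 the excess of Actb ran from 315.1 to 759.4 times in the 5 livers with over 3 counts of Actg2, and no fold is given for t-DHEA rat 3, which had 1 count. The counterpart chosen for Myh11 was Myh9, which is listed at 0, and no other ratio was computed for it.

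The log2 ratio of the smooth muscle to the non-muscle form did not separate the groups for any of the 8 pairs. The exact permutation test, two-sided, gave p-values from 0.3 to 1 and adjusted p-values from 0.914 to 1, where 0.1 is the smallest p that 3 livers against 3 allow. The largest difference was that of Cnn1 to Cnn3, which was 1.87 log2 units higher in t-DHEA livers, with ratios of the groups overlapping (exact permutation test, p = 0.3), but 3 of its 6 ratios rest on 3 or fewer counts of Cnn1. For Des to Vim it was 0.39, and for Tpm1 to Tpm3 it was -0.028.

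Of 12 non-muscle counterparts tested, 3 fell and none rose in t-DHEA livers by the criteria. These are 25% of those tested, beside 4.95% of all genes tested, or 2.98% as lower. The median log2 fold change of the counterparts was -0.084. Vim, the intermediate filament protein of mesenchymal cells, had 515, 694 and 525 counts in t-PBS and 394, 285 and 411 counts in t-DHEA livers. Each t-DHEA liver was below each t-PBS liver. Vim fell by 0.57 on the log2 scale, with a standard error of 0.19 (unadjusted p = 0.0145, quasi-likelihood test of edgeR), and did not meet the criteria when t-PBS rat 2 was left out. Tpm4, a non-muscle tropomyosin, fell by 0.37 and Myh10, a non-muscle myosin heavy chain, fell by 0.47 on the log2 scale. Tpm4 met the criteria in 2 and Myh10 in 1 of the 6 leave-one-out fits, and Myh10 met them neither in DESeq2 nor in limma. Vim met the criteria and Des did not, and likewise Tpm4 and Tpm2, but the ratios of these pairs did not separate the groups.

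Other genes of the smooth muscle contractile apparatus and cytoskeleton were taken from a list of 25, of which 18 were tested. Of these, 1 rose and 3 fell by the criteria, or 22.2%, where 4.95% of all genes met them. The median log2 fold change was -0.054. The gene that rose was Tagln, which encodes the actin-binding protein SM22. Tagln had 140, 171 and 130 counts in t-PBS and 297, 281 and 280 counts in t-DHEA livers, without overlap. Its expression was 10.7 ± 1.61 CPM in t-PBS and 22.4 ± 1.87 CPM in t-DHEA livers (SD, n = 3 each). The log2 fold change was 1.06, its standard error 0.13 (adjusted p = 0.242, quasi-likelihood test of edgeR), and Tagln met the criteria in all 6 leave-one-out fits. Its locus shares 1019 bases with that of Sidt2, a lysosomal membrane protein gene, which fell by 0.67 on the log2 scale (unadjusted p = 0.000191, quasi-likelihood test of edgeR). The strandedness of the libraries is not given in the sources used here, so that reads of the shared stretch may have gone to either gene. None of the 9 contractile genes overlapped another locus of the table.

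Tagln is often read together with Acta2 as a smooth muscle marker. The ratio of Tagln to Acta2 in FPKM was between 1.71 and 1.88 in t-PBS livers and between 3.59 and 6.41 in t-DHEA livers. For Acta2, Tpm1, Tpm2, Myl9 and Des, 5 of the 9 genes, the lowest ratio in t-DHEA livers exceeded the highest in t-PBS livers (two-sided exact permutation test, p = 0.1, the smallest possible, and 0.18 adjusted over 9 ratios). The differences of these 5 ratios ran from 1.15 to 1.36 log2 units. For Actg2, Myh11, Cnn1 and Lmod1 the ratios overlapped, with p-values from 0.2 to 0.5 in the exact test, and for Cnn1 the difference was -0.84. In t-DHEA rat 3, where Acta2, Myh11 and Lmod1 were lowest, Tagln had 280 counts, against 297 and 281 in the other t-DHEA livers. These ratios were chosen after the values of Tagln had been seen. Tagln alone rose by 1.06 on the log2 scale without overlap, so that its ratio to any gene that stayed level would separate the groups. The p-values therefore do not test the 9 genes. The share of all genes whose ratio to Tagln separates the groups was not computed.

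The 3 genes of that list that fell were Csrp1, Flna and Fhl1. Csrp1, a LIM protein of the cytoskeleton, fell by 0.27, Flna, an actin cross-linker, fell by 0.39, and Fhl1, another LIM protein, fell by 0.52 on the log2 scale. They met the criteria in 2, 3 and 3 of the 6 leave-one-out fits, Csrp1 and Fhl1 did not meet them in DESeq2, and Flna and Fhl1 did not in limma. Smtn, Cald1, Synpo2 and Mylk, which encode smoothelin, caldesmon, synaptopodin-2 and the myosin light chain kinase, had log2 fold changes of 0.021, -0.047, -0.26 and -0.064 and did not meet the criteria. Synpo2 had 32, 33 and 31 counts in t-PBS and 29, 32 and 14 counts in t-DHEA livers, with the minimum in t-DHEA rat 3.

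**Figure D4:**
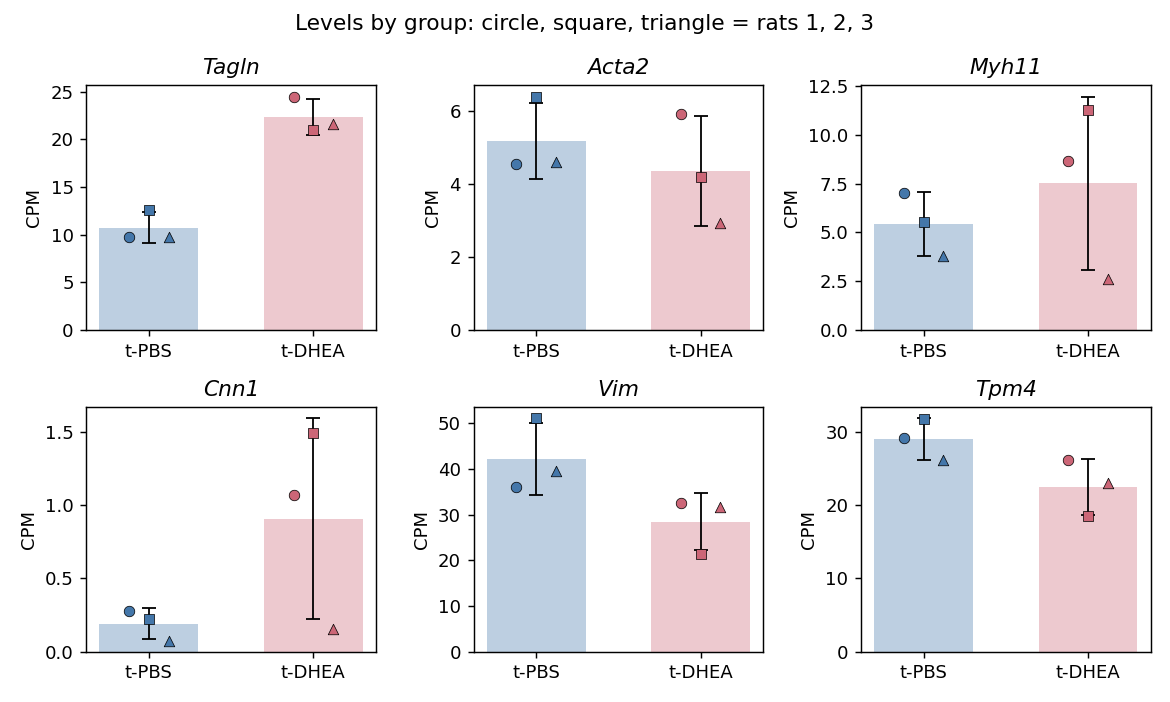
CPM of 6 genes by group, with bars for the mean, error bars for the SD (n = 3) and symbols for rats 1, 2 and 3. Tagln is higher in all 3 t-DHEA livers, Vim and Tpm4 are lower in all 3, and Acta2, Myh11 and Cnn1 overlap between groups.

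A further list held SRF, its myocardin family partners and other regulators of muscle genes. Of 18 tested, 1 rose and 2 fell, or 16.7%, where 4.95% of all genes met the criteria, and the median log2 fold change was -0.013. The 3 genes, Tgfb1, Mef2d and Mef2c, are neither SRF nor of the myocardin family. Mkl1, which is of that family, had a log2 fold change of -0.039 and did not meet the criteria. Tgfb1, a growth factor that induces smooth muscle genes in mesenchymal cells, had 181, 168 and 163 counts in t-PBS and 99, 108 and 130 counts in t-DHEA livers. Tgfb1 fell by 0.51 on the log2 scale (unadjusted p = 0.00419, adjusted p = 0.80, quasi-likelihood test of edgeR) and met the criteria in all 6 leave-one-out fits. Mef2d fell by 0.27 and Mef2c rose by 0.79 on the log2 scale, and these muscle transcription factors met the criteria in 2 and 1 of the 6 leave-one-out fits and not in DESeq2.

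Srf had 276, 300 and 275 counts in t-PBS and 193, 423 and 252 counts in t-DHEA livers, with a log2 fold change of 0.11 and overlapping groups. Its highest and its lowest liver were t-DHEA rats 2 and 1. Myocd, the smooth muscle coactivator of SRF, had 1 count over the 3 t-PBS and 1 over the 3 t-DHEA livers, which lies under the limit that a count of 0 allows. Of 16 receptors and ion channels of smooth muscle tested, none met the criteria, where 4.95% of all genes did. Of the 16, 14 had a log2 fold change below 0, beside 49.6% of all genes tested, and the median was -0.064. Atp2a2, Avpr1a and Agtr1a of this list were at 236.8, 173.5 and 151.8 CPM in t-PBS livers, where Acta2 was at 5.19 CPM. Which cells carry these genes was not tested, so that the 14 signs are not read as a trend of smooth muscle. Kcnmb1, a potassium channel subunit of smooth muscle, had 1 count in t-PBS and 2 in t-DHEA livers, and Ednra, an endothelin receptor, had a log2 fold change of -0.18.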

How the data were processed

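Liver RNA libraries (TruSeq, paired-end) of 3 t-PBS and 3 t-DHEA rats were compared. The authors filtered reads with Seqtk, mapped them to Rnor_6.0 with HISAT2 2.0.4 and counted fragments per gene with StringTie 1.3.0, and the deposited counts are raw. The FPKM values deposited by the authors are these counts scaled to gene length and total count, within a relative difference of 0.00079. The annotation release and strandedness are not given in the sources used here.

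Groups and rat numbers came from the labels. Counts were tested with edgeR 4.0.16 (TMM, default filter, quasi-likelihood test, two-sided, no block) in R 4.3.3, with the study's thresholds of 1.2 for the fold-change and 0.05 for p without adjustment. The study's own edgeR run used FPKM, which edgeR is not made for, so the counts were used here. CPM values are scaled by TMM factors. Standard errors come from the test statistic. Alternatives were DESeq2 1.42.0, limma 3.58.1 on log2(FPKM + 0.1) and log2(FPKM + 1), the likelihood-ratio test, other scaling factors and filters, rat number as a block, and each liver left out. The scripts were tested on simulated data. Libraries differed by at least 16.1 times the counting noise, so that none was a duplicate. The members and lists were chosen with earlier results of these data known. Named genes were the 9 genes, their non-muscle counterparts, up to 3 genes with the lowest p meeting the criteria in each list, markers given as levels and the 5 genes nearest in profile; any other gene named was picked with its values known. Promoter sequences are RefSeq's (GRCr8). The result of 1 gene list is not reported here.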

Additional observations from a re-analysis of the deposited data

How the results depend on the processing

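With the other tools, scaling factors and the replicate block, 0 of the 8 genes tested met the criteria, and 0 of 6 did with at least 10 counts in every liver. Cnn1 was not tested in these fits. Without the filter 1 of the 9 genes met them (Cnn1). When single livers were left out, between 0 and 2 did (Cnn1 without t-PBS rat 1, Cnn1 and Myh11 without t-DHEA rat 3). The fits that leave out a liver use the filter anew, so that up to 9 genes were tested. The median log2 fold change, -0.16, was between -0.19 and -0.12 with another tool, scaling or filter and between -0.21 and -0.032 with single livers left out. Of all genes tested, 604 met the criteria, 275 did with a fold-change over 1.5, and 0 with p adjusted over all genes in edgeR (634 had a p under 0.05 before adjustment). The log2 fold change of Actg2, 0.097, was -0.27 and -0.013 with limma on log2(FPKM + 0.1) and log2(FPKM + 1), -0.026 with the replicate block, and from -0.36 to 0.64 with single livers left out. That of Lmod1 ran from -0.77 to 0.18, that of Tpm1 from -0.17 to 0.023 and that of Tpm2 from -0.42 to 0.18 with single livers left out. The causes of these turns were not tested. Rats with the same number did not deviate together (correlations of deviations over genes between -0.058 and -0.057), so that the numbers do not pair the livers, and with the replicate block 539 genes and none of the 8 contractile genes met the criteria. Cnn1, Actg2 and Lmod1 had 1 to 20 counts per liver, and varied within groups 3.77, 3.90 and 3.27 times as much as counting noise.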
